A study of Homo sapiens with 36 samples.

Results

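GSK-J4 pretreatment was compared with no pretreatment in cisplatin-treated NT2/D1-A4 cells. This comparison used 6 of the 36 libraries in the series, the 3 labelled Combination and the 3 labelled Cisplatin, and all 16431 genes in the table of that experiment were tested. NT2/D1-A4 is a cisplatin-resistant clone of NT2/D1, a human embryonal carcinoma line, which is a testicular germ cell tumor (TGCT) line with stem cell properties. All 6 libraries came from cells given 0.5 µM cisplatin for 6 h and harvested 24 h after cisplatin. Combination cells were also given 1 µM GSK-J4 for 3 days before cisplatin, and Cisplatin cells were not. The study further held NT2/D1-A4 cells labelled VC, the control with neither drug, and NT2/D1-A4 cells given GSK-J4 alone. The same 4 arms were made in 2102EP-C1, a cisplatin-resistant clone of a second embryonal carcinoma line. A separate experiment used 2102EP-C1 cells with combined hairpin knockdown of KDM6A and KDM6B (sh6A+6B) or the pLKO.1 vector control, with and without cisplatin. Each line was represented by 1 resistant clone, so that clone and line cannot be told apart.

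GSK-J4 inhibits KDM6A and KDM6B, the demethylases that remove methyl groups from lysine 27 of histone H3 (H3K27). Methylation at this residue is placed by EZH2 in polycomb repressive complex 2 and is known for holding developmental genes silent in stem cells and embryonal carcinoma cells. Cisplatin crosslinks DNA, and p53 targets for arrest and death are a known part of the response of TGCT cells to it. The comparison addressed which transcripts the inhibitor altered when cisplatin was also present.

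Depth was 31031970 to 36750625 reads in the Cisplatin libraries and 26842718 to 37537312 in the Combination libraries. The median SD between replicates was 0.077 log2 CPM for Cisplatin and 0.107 for Combination, where CPM is the deposited level, scaled to sequencing depth. Embryonal carcinoma identity was checked with markers. POU5F1, the core pluripotency factor, stood at 8.94 to 8.99 log2 CPM in the Cisplatin libraries and 9.04 to 9.10 in the Combination libraries, and NANOG stood at 8.25 to 8.38 and 8.12 to 8.17. LIN28A and PODXL were also above 10 log2 CPM in all 6 libraries. The study calls its replicates biological, and the labels do not say whether they were separate cultures, so that p-values measure the spread between these libraries, which may be technical.

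GSK-J4 changed 3396 of the 16431 genes in cisplatin-treated NT2/D1-A4 cells. A gene was called changed at a fold change over 1.3 with an adjusted p under 0.05 by limma-trend with Benjamini-Hochberg adjustment. There were 2107 genes called up (12.8% of those tested) and 1289 called down (7.84%). Rises were larger than falls, with a median log2 fold change of 0.68 among genes called up and -0.55 among genes called down, and 451 genes rose over 2-fold while 112 fell over 2-fold. Changed genes were found at all levels of expression but less so at the top. Of the 3622 genes with a mean above 6 log2 CPM, 4.2% were called up and 6.35% down, and of the 2784 genes between 0 and 2 log2 CPM, 23.5% were called up and 12% down. Among 2013 lncRNA genes 15.5% were called up, against 12.6% of 13514 protein-coding genes.

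Genes of the integrated stress response, in which the factor ATF4 switches on genes for amino acid supply and for cell death under stress, rose with GSK-J4. Of 20 listed genes tested, 19 were called up (95%) and none down, against 12.8% and 7.84% of all genes tested. The list median log2 fold change was 1.53 against 0.01 over all genes tested. CHAC1, which degrades glutathione, stood at -0.45, -0.67, and -0.02 log2 CPM in the 3 Cisplatin libraries and at 2.99, 3.04, and 2.80 in the 3 Combination libraries. All 3 Combination libraries were therefore above all 3 Cisplatin libraries, with 184 to 311 reads against 19 to 33, and the rise was 9.99-fold (log2 fold change 3.32, SE 0.14, adjusted p = 1e-12). NUPR1, a stress-induced chromatin protein, rose 12.3-fold (log2 fold change 3.61, SE 0.15) from -0.33, -0.73, and -0.87 log2 CPM to 2.85, 3.23, and 2.84. TRIB3, a pseudokinase that restrains AKT and ATF4, stood at 1.81, 1.80, and 2.03 log2 CPM without GSK-J4 and at 4.49, 4.52, and 4.48 with it. The values of NUPR1 and of TRIB3 did not overlap between the arms. DDIT3, which encodes the death-linked factor CHOP, rose 4.22-fold from 1.42, 1.44, and 1.74 log2 CPM to 3.52, 3.58, and 3.74 (log2 fold change 2.08, SE 0.10, adjusted p = 7.6e-12), and its locus overlaps another annotated gene over 70.5% of its span.

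The transcript of ATF4 itself, which is known to be regulated mainly in translation, rose 1.38-fold. It stood at 7.20, 7.22, and 7.20 log2 CPM in Cisplatin libraries and 7.66, 7.66, and 7.70 in Combination libraries (SE of log2 0.03, adjusted p = 1.8e-09). ATF5, a related factor, was the listed gene that was not called (log2 fold change 0.07, adjusted p = 0.33), and its values overlapped between the arms. DDIT4, an mTORC1 inhibitor, rose 5.29-fold and GDF15, a secreted stress cytokine, rose 6.00-fold. ATF3, a stress-induced repressor, rose 2.51-fold, CEBPB 2.36-fold, and SESN2, an amino acid sensor that restrains mTORC1, had a log2 fold change of 1.56. ASNS, asparagine synthetase, was called up (log2 fold change 1.82, SE 0.36, adjusted p = 0.00043) on 3 to 23 reads in Cisplatin libraries and 29 to 48 in Combination libraries. The annotated ASNS span lies 99.4% within the readthrough gene CZ1P-ASNS, and reads shared by the pair cannot be assigned, so that its level is uncertain.

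**Figure D1:**
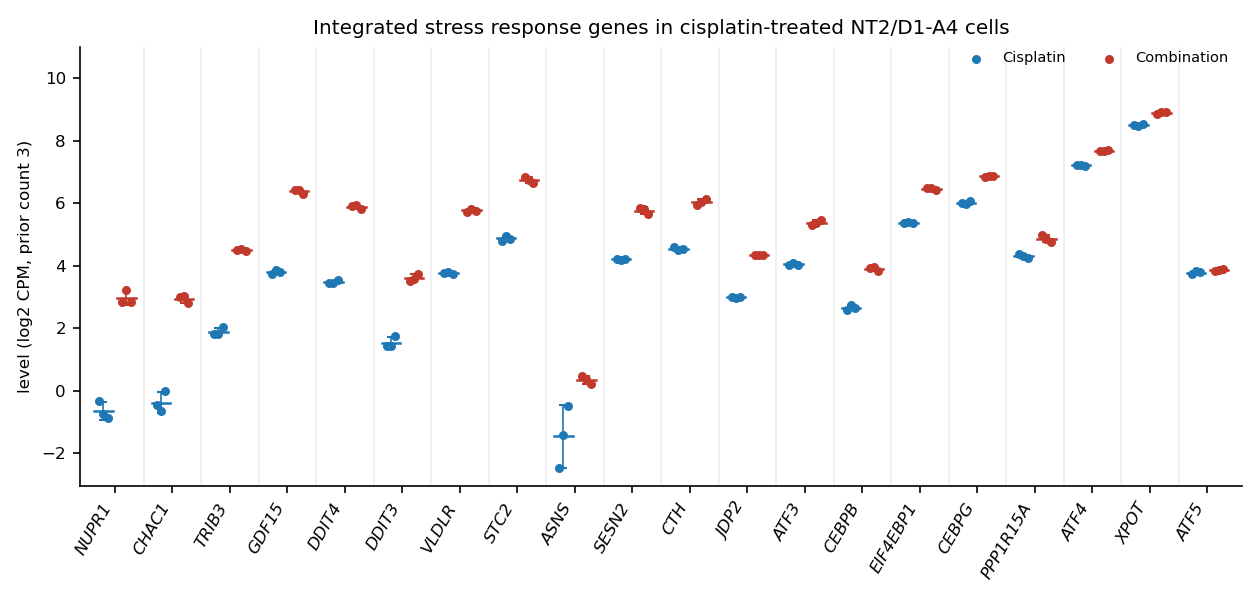
Levels of the 20 integrated stress response genes in log2 CPM (y axis) in each Cisplatin (blue) and Combination (red) library of NT2/D1-A4 cells. Points are libraries, horizontal lines are means, and error bars are the SD of 3 libraries. For every gene but ATF5 the 3 Combination libraries lie above the 3 Cisplatin libraries. The share of all genes without overlap is not given here, and 7949 of 16431 genes had a limma-trend adjusted p under 0.05 at any fold change.

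Promoters were shown for 4 genes called up, from the stress response and cytosolic aminoacyl-tRNA synthetase lists, because their 250 bases before the RefSeq start site hold the letters TGATGNAA, a short form of the composite element that ATF4 and its partners are known to bind. Of 12328 tested genes with a RefSeq promoter sequence (GRCh38.p14), 1.6% held TGATGNAA on either strand in these 250 bases. The share was 3.48% of 1550 promoters of genes called up, 6.56% of 320 promoters of genes up over 2-fold, and 1.23% of 896 promoters of genes called down. It was 14.3% (5 of 35 promoters) among genes called up in the stress response, amino acid, and cytosolic synthetase lists. Among members of these lists not called up it was 4.55% (1 of 22). The lists hold genes known to be switched on by ATF4 and were chosen with earlier results of these data known. The higher share in them is therefore not separate support. The E-box CACGTG was held by 8.59% of all promoters and 6.32% of those of genes called up. In the 35 promoters from the lists its share was 11.4% (4 promoters). The letters TGACNNNGC were held by 11.8% of all promoters, 10.5% of those of genes called up, and 17.1% (6) of the 35. The shares of these 2 other motifs were thus also higher in the 35 promoters than in all promoters. A match is a description of letters and not a shown site. CHAC1 is printed from chr15:40953221-40953470 on the plus strand, with the match 209 bases before the start. ASNS is printed from chr7:97872409-97872658 on the minus strand, with the match 68 bases before the start. ATF3 is printed from chr1:212565157-212565406 on the plus strand, with the match 191 bases before the start. AARS1, alanyl-tRNA synthetase (1.32-fold up), is printed from chr16:70289507-70289756 on the minus strand, with the match 187 bases before the start. Each sequence runs 5′ to 3′ toward the start site, and capitals mark the match or its reverse complement.
CHAC1: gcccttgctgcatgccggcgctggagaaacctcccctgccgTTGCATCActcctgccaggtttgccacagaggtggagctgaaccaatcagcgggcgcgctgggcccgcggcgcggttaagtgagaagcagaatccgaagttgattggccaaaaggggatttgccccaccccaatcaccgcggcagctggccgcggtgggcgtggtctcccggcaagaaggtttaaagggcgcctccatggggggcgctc
ASNS: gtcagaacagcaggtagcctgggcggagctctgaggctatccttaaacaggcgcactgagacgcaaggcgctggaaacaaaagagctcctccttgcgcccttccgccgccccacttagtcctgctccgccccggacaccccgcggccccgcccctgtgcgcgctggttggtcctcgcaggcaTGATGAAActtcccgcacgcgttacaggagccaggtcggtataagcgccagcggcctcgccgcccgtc
ATF3: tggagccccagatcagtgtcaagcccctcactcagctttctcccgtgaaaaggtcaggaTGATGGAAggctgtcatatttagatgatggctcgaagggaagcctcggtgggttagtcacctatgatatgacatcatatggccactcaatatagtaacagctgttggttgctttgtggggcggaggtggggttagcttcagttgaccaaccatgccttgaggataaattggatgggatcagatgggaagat
AARS1: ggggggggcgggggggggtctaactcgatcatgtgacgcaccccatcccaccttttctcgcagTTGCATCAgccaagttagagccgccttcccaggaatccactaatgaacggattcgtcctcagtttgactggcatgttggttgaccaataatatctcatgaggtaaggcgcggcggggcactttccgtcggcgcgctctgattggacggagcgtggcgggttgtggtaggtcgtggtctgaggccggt

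Genes for amino acid uptake and synthesis rose alongside. Of 17 amino acid transporter genes, 10 were called up (58.8%) and none down (median log2 fold change 0.87). Over all genes tested, 12.8% were called up and 7.84% down. SLC7A11, the cystine importer that feeds glutathione synthesis, stood at 6.11, 5.99, and 6.00 log2 CPM in Cisplatin libraries and at 8.04, 8.13, and 8.13 in Combination libraries, a rise of 4.19-fold (SE of log2 0.05, adjusted p = 9.2e-16). SLC1A4, which carries alanine and serine, rose 7.50-fold, SLC6A9, the glycine transporter, rose 7.27-fold, and SLC43A1, which carries large neutral amino acids, rose 2.63-fold. Of 13 genes for serine, one-carbon, and proline synthesis, 8 were called up (61.5%) and 1 down (7.69%, median 0.98). SHMT2, the mitochondrial enzyme that splits serine into glycine and a folate-bound carbon, stood at 6.03, 6.12, and 6.04 log2 CPM without GSK-J4 and 7.66, 7.65, and 7.66 with it. PHGDH, the first enzyme of serine synthesis, rose 2.57-fold and ALDH1L2, a mitochondrial folate enzyme, rose 7.98-fold. ALDH1L1, its cytosolic relative, rose 3.19-fold from a lower level.

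Aminoacyl-tRNA synthetases charge transfer RNAs with amino acids. Of 20 cytosolic synthetase genes 6 were called up (30%) and 1 down (5%), against 12.8% and 7.84% of all genes tested (median 0.27). Of 17 mitochondrial synthetase genes none was called up and 1, AARS2, was called down (5.88%, median -0.17). CARS1, the cysteine enzyme, stood at 5.22, 5.30, and 5.29 log2 CPM in Cisplatin libraries and 6.40, 6.44, and 6.38 in Combination libraries (2.20-fold, adjusted p = 3.9e-14). SARS1 rose 2.14-fold, GARS1 1.99-fold, and WARS1 1.89-fold. The call on AARS2 (log2 fold change -0.39) ended without Cisplatin replicate 1 (-0.37) or 2 (-0.38), without Combination replicate 2 (-0.36) or 3 (-0.33), and at plain library sizes (-0.36).

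Genes of the endoplasmic reticulum (ER) were called in both directions. Of 20 genes for ER chaperones and the unfolded protein response, 5 were called up and 1 down (25% and 5%, against 12.8% and 7.84% of all genes tested), and the median was -0.11. HERPUD1, which serves ER-associated degradation, stood at 5.08, 5.09, and 5.0 log2 CPM without GSK-J4 and 5.82, 5.95, and 6.06 with it (1.85-fold, adjusted p = 3.7e-10). XBP1 rose 1.40-fold and EDEM1 1.39-fold. HSPA5, the main ER chaperone (BiP), had lower values in all 3 Combination libraries at 9.79, 9.77, and 9.78 against 10.07, 10.09, and 10.06, but its change of 0.816-fold (adjusted p = 1.5e-07) was within the 1.3-fold limit. SDF2L1, an ER chaperone partner, fell to 0.616-fold of its level. The count called down was 2 without Cisplatin replicate 1 or Combination replicate 3.

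**Figure D2:**
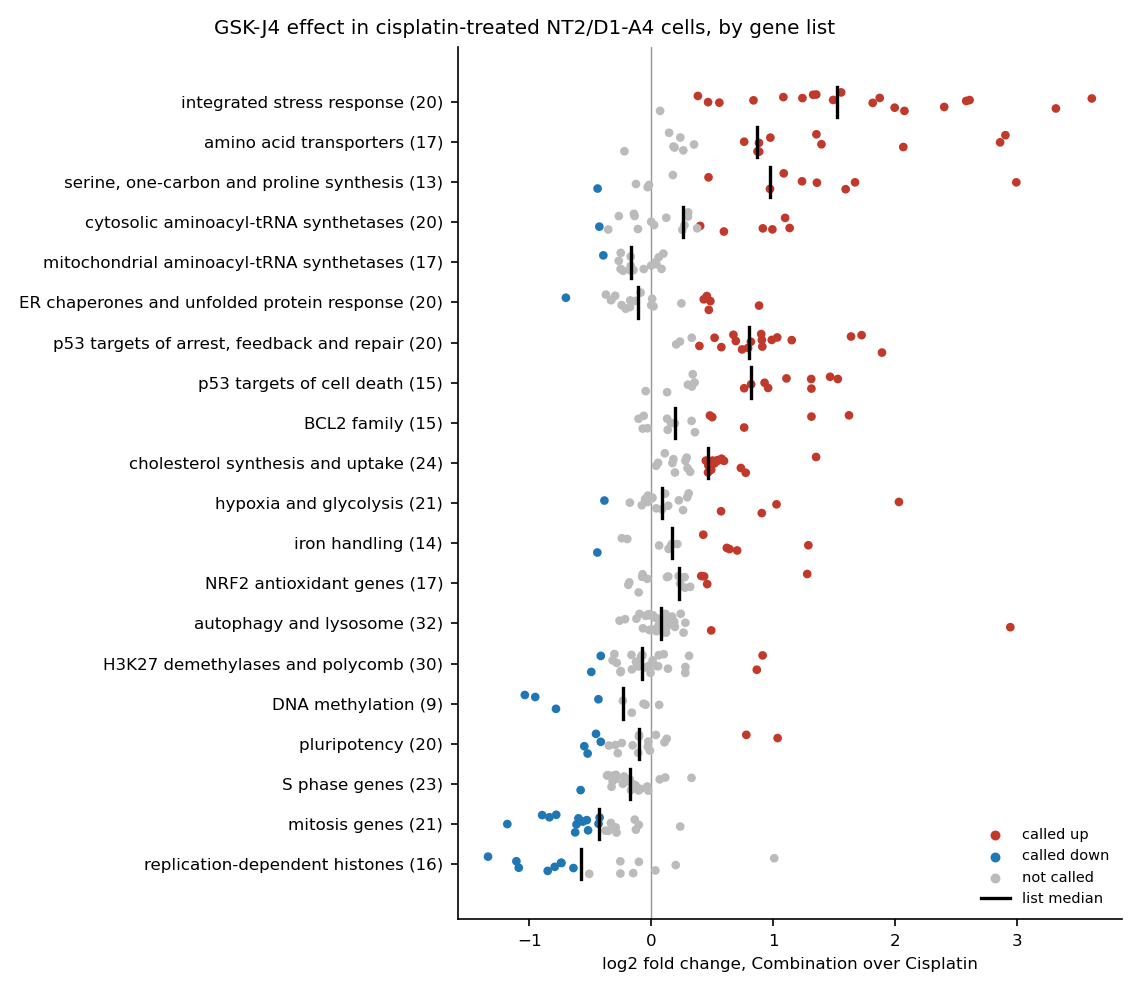
Log2 fold change of Combination over Cisplatin (x axis) for the tested members of 20 gene lists (y axis, number tested in brackets) in NT2/D1-A4 cells. Each point is a gene, red called up, blue called down, and gray not called, and the black bar is the list median, which runs from -0.57 for replication-dependent histones to 1.53 for the integrated stress response.

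Targets of p53 also rose. Of 20 p53 targets for arrest, feedback, and repair, 17 were called up (85%) and none down (median 0.81). Over all genes tested, 12.8% were called up and 7.84% down. CDKN1A, which encodes the cell cycle inhibitor p21, stood at 4.07, 4.24, and 4.14 log2 CPM without GSK-J4 and at 5.81, 5.77, and 5.80 with it, a rise of 3.12-fold (SE of log2 0.06, adjusted p = 1.4e-13) with no overlap. MDM2, the ubiquitin ligase that limits p53, rose 1.87-fold from 10.52, 10.48, and 10.47 log2 CPM to 11.27, 11.41, and 11.51. BTG2, an antiproliferative factor, rose 3.72-fold, TP53INP1, a p53 cofactor, rose 3.31-fold, and PLK2, a stress kinase, rose 2.23-fold. TP53INP1 lies within the annotated span of NDUFAF6.

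Of 15 p53 targets for cell death, 9 were called up (60%) and none down, against 12.8% and 7.84% of all genes tested (median 0.82). FAS, a death receptor, stood at 2.89, 2.95, and 2.88 log2 CPM in Cisplatin libraries and 4.13, 4.48, and 4.51 in Combination libraries (2.77-fold, adjusted p = 4.3e-10). PMAIP1, which encodes the BCL2 antagonist NOXA, rose 2.49-fold from 5.60, 5.64, and 5.66 to 6.76, 7.0, and 7.08. TNFRSF10C, a TRAIL decoy receptor without a death domain, rose 2.89-fold, and TNFRSF10B, the TRAIL death receptor DR5, rose 2.49-fold from a low level. In the BCL2 family, 5 of 15 genes were called up (33.3%, against 12.8% of all genes tested) and none down (median 0.19). Those 5 were the death-promoting HRK (3.08-fold), PMAIP1, and BBC3 (1.70-fold), which encodes PUMA, and the protective BCL2L1 and BCL2. BAX, BAK1, and MCL1 had log2 fold changes of 0.13, -0.03, and -0.07 and were not called. The BCL2 call (log2 fold change 0.50) ended without Cisplatin replicate 1 (0.39).

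The targets of the inhibitor were examined next. KDM6B stood at 3.56, 3.51, and 3.52 log2 CPM in Cisplatin libraries and 4.48, 4.47, and 4.38 in Combination libraries, a rise of 1.89-fold (SE of log2 0.06, adjusted p = 8.2e-10) with no overlap. KDM6A stood at 6.76, 6.68, and 6.70 and at 6.69, 6.66, and 6.57, overlapping values that were not called (log2 fold change -0.07, adjusted p = 0.12). EZH2, the H3K27 methyltransferase, had a log2 fold change of -0.00 (adjusted p = 0.94), and its sign turned at plain library sizes (0.02). Of 30 genes for H3K27 demethylases and polycomb proteins, 2 were called up and 2 down (median -0.07). These shares were 6.67% each, against 12.8% up and 7.84% down over all genes tested. Besides KDM6B, those called in this list were PCGF5, a polycomb complex 1 subunit (1.82-fold up), CBX2, a reader of H3K27 methylation (0.712-fold), and EPOP, a polycomb complex 2 partner (0.751-fold). The EPOP call ended without Cisplatin replicate 1 (log2 fold change -0.38). Among 33 genes of the KDM, KMT, and CHD families, KDM6B was called up (3.03%) and CHD8 and KMT2C were called down (6.06%). The number called down in that list was 1 without Cisplatin replicate 1, 1 without Combination replicate 2, and 6 without Combination replicate 1, and 2 were called up without Cisplatin replicate 1 or 2 or Combination replicate 2 or 3.

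Several genes of DNA methylation fell with GSK-J4. Of 9 genes, 4 were called down and none up (median -0.23), against 7.84% called down over all genes. DNMT3B, the de novo methyltransferase that is abundant in embryonal carcinoma cells, stood at 10.70, 10.62, and 10.59 log2 CPM in Cisplatin libraries and 9.97, 9.84, and 9.76 in Combination libraries. All 3 Combination libraries were lower, at 0.582-fold (SE of log2 0.05, adjusted p = 1.1e-10). UHRF1, which brings DNMT1 to newly copied DNA, fell to 0.518-fold from 6.6, 6.52, and 6.50 log2 CPM to 5.80, 5.58, and 5.38. DNMT3L, a cofactor of DNMT3A and DNMT3B, fell to 0.488-fold, and TET1, a 5-methylcytosine oxidase, fell to 0.741-fold. DNMT1 and DNMT3A had log2 fold changes of -0.16 and -0.23 and were not called.

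The core pluripotency factors POU5F1, SOX2, and NANOG were not called. Of 20 pluripotency genes, 2 were called up (10%) and 4 down (20%), against 12.8% and 7.84% of all genes tested (median -0.10). SOX2 stood at 8.10, 8.08, and 8.05 log2 CPM without GSK-J4 and 7.82, 7.79, and 7.80 with it, a change of 0.828-fold that was within the fold limit (adjusted p = 1.3e-06). The genes called up were LEFTY1 (1.72-fold) and LEFTY2 (2.05-fold), secreted inhibitors of NODAL, and those called down included the pluripotency cofactor UTF1 (0.684-fold) and the growth factor FGF4 (0.697-fold). Summed over 10 embryonal carcinoma markers, the level was 9084 to 9486 CPM in Cisplatin libraries and 7376 to 8178 in Combination libraries, and DNMT3B was the only marker of that list called, with 2 called down without Combination replicate 1.

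Markers of other germ cell tumor types and lineages were examined next. In yolk sac endoderm, 2 of 6 listed markers were tested and both were called up. AFP, the yolk sac secreted protein, had log2 CPM of -2.03, -2.83, and -2.02 without GSK-J4 and -1.20, -0.60, and -0.41 with it (2.95-fold, adjusted p = 0.00054), and GATA4 rose 1.69-fold. Their summed level was 2.30 to 3.08 CPM in Cisplatin libraries and 4.68 to 4.87 in Combination libraries. AFP was under the authors' limit of 0.5 CPM in all 3 Cisplatin libraries, so that it was tested only because other libraries were higher. Its call is therefore partly set by that filter, and the listed markers that were not tested are not described by it. GATA3, the 1 of 7 trophoblast markers tested, rose 1.65-fold. PRDM1 rose 1.87-fold and was the only call among 4 seminoma markers tested, of which 2 were higher and 2 lower (median -0.05). The summed level of these 4 was 242 to 251 CPM in Cisplatin libraries and 235 to 242 in Combination libraries. The part of these markers in the other results was not tested. None of 5 neural markers or 3 mesoderm markers was called. In these bulk libraries, more cells of a type and more RNA per cell cannot be told apart. Among 57 developmental homeobox, T-box, and GATA genes, known as frequent polycomb targets, 11 were called up and 7 down (median 0.05). These shares were 19.3% and 12.3%, against 12.8% and 7.84% of all genes tested. Leaving out single libraries gave 8 to 13 called up and 6 to 8 called down. The list summed to 464 to 466 CPM in Cisplatin libraries. Of all genes between 0 and 2 log2 CPM, 23.5% were called up and 12% down. The list was not compared with genes of matched level, so that these shares do not show an excess at polycomb targets. HOXC13 (2.77-fold) and IRX5 (2.55-fold) rose most in the developmental list, and SIX2 had the largest fall (log2 fold change -0.79).

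Mitosis genes fell with GSK-J4. Of 21 mitosis genes, 12 (57.1%) were called down and none up (median -0.43), against 7.84% called down over all genes tested. Of 23 S phase genes 1 (4.35%) was called down and none up (median -0.17). MKI67, the proliferation antigen, stood at 8.98, 8.76, and 8.72 log2 CPM in Cisplatin libraries and 8.10, 7.95, and 7.91 in Combination libraries, a fall to 0.561-fold (SE of log2 0.07, adjusted p = 3.2e-08) with no overlap. CENPE, a kinetochore motor, fell to 0.442-fold from 7.02, 6.79, and 6.84 to 5.72, 5.70, and 5.71. KIF20A, a cytokinesis motor, fell to 0.538-fold, and CENPF, a kinetochore protein, to 0.583-fold. CCNA2, CCNB2, and CDK1 had log2 fold changes of -0.10, -0.12, and -0.13 and were not called. CCNE1, the cyclin of S phase entry, fell to 0.670-fold, and 3 S phase genes were called down without Combination replicate 1. Of 16 replication-dependent histone genes, 8 were called down (50%) and none up (median -0.57). The count called down was 6 without Cisplatin replicate 2 and 6 with the 6 compared libraries alone. The count called up was 1 without Cisplatin replicate 3 and 1 with limma-voom. These histone messages lack poly(A) tails, and their summed level in the poly(A)-selected libraries was 41.8 to 47.6 CPM in Cisplatin libraries and 29.1 to 32.5 in Combination libraries. H1-2 fell to 0.465-fold and H2AC6 to 0.396-fold.

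Cholesterol genes rose in NT2/D1-A4 cells. Of 24 genes for cholesterol synthesis and uptake, 14 were called up (58.3%) and none down, against 12.8% and 7.84% of all genes tested. All 24 had a positive log2 fold change (median 0.47). MSMO1, a sterol demethylation enzyme, stood at 7.65, 7.70, and 7.78 log2 CPM in Cisplatin libraries and 8.26, 8.5, and 8.71 in Combination libraries (1.71-fold, adjusted p = 5.1e-08). TM7SF2, a sterol reductase, rose 2.56-fold, STARD4, a sterol carrier, 1.67-fold, LSS, lanosterol synthase, 1.51-fold, and HMGCS1, an early enzyme of the pathway, 1.46-fold. In 2102EP-C1 cells, the same comparison of Combination with Cisplatin called 10.5% of 17035 genes up and 8.82% down, and there none of the 24 genes was called up and 13 were called down (median -0.45). HMGCS1 had a log2 fold change of -0.51 (SE 0.07) there against 0.55 (SE 0.03) in NT2/D1-A4 cells, and INSIG1, the sterol sensor partner, -0.63 (SE 0.07) against 0.47 (SE 0.04). The 2 tables were normalized separately, and the difference between them was not tested.

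**Figure D3:**
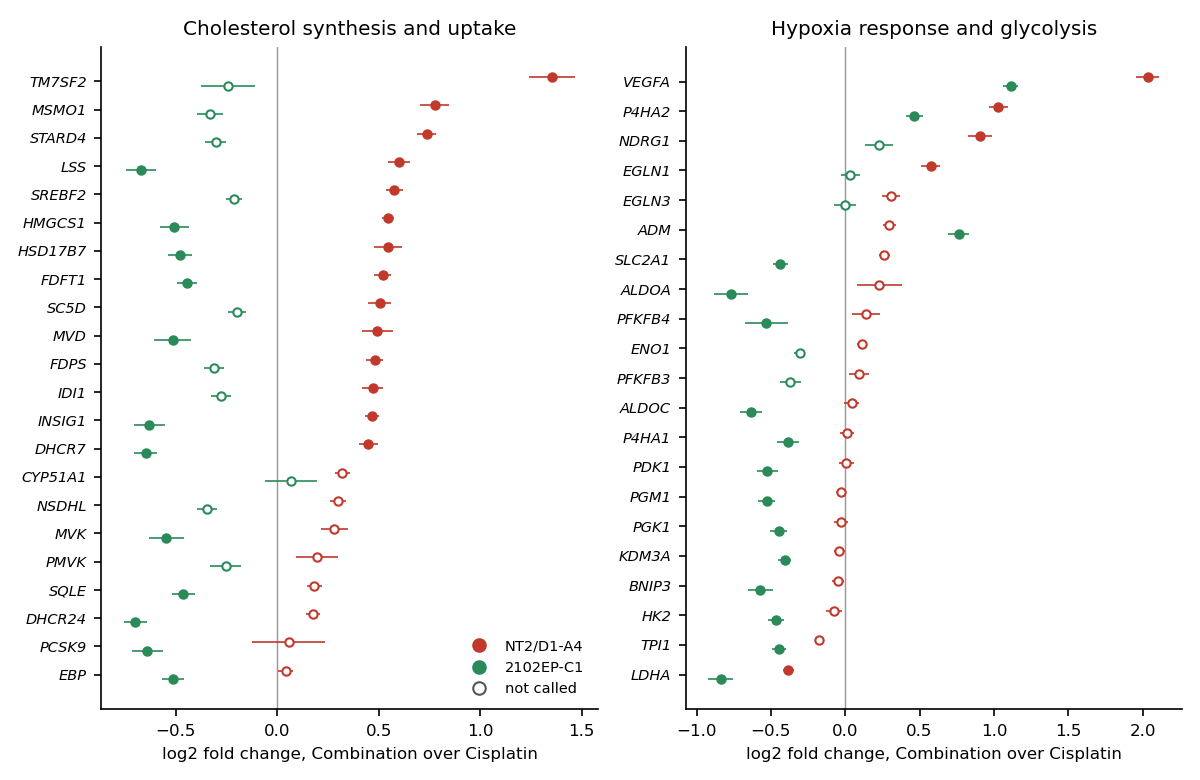
Log2 fold change of Combination over Cisplatin (x axis) for 22 cholesterol genes (left) and hypoxia and glycolysis genes (right) in NT2/D1-A4 cells (red) and 2102EP-C1 cells (green). Error bars are SE, open circles were not called, and all 22 red cholesterol points drawn lie above 0 while 12 green ones were called down.

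Hypoxia and glycolysis genes were also set side by side between the lines. In NT2/D1-A4 cells 4 of 21 genes were called up (19%) and 1 down (4.76%), against 12.8% and 7.84% of all genes tested (median 0.09). In 2102EP-C1 cells 3 were called up and 13 down, against 10.5% and 8.82% of all genes tested there (median -0.44). VEGFA, the vascular growth factor, rose 4.09-fold in NT2/D1-A4 cells, from 2.67, 2.50, and 2.88 log2 CPM to 4.75, 4.69, and 4.72. P4HA2, a collagen prolyl hydroxylase, rose 2.04-fold and NDRG1, a hypoxia-induced gene, 1.88-fold. LDHA, lactate dehydrogenase, had a log2 fold change of -0.38 (SE 0.04), just past the limit, and -0.84 (SE 0.08) in 2102EP-C1 cells. The LDHA call ended without Cisplatin replicate 2 or 3, without Combination replicate 1 or 2, and at plain library sizes, which left 0 genes of the list called down. Stress response genes were called up in both lines. In 2102EP-C1 cells 19 of 21 integrated stress response genes were called up (median 1.40), including ATF5 (log2 fold change 1.69), and 9 of 21 arrest targets of p53 were called up (median 0.31).

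Over all genes tested in both lines, 868 genes were called up in both, which was 43.6% of those called up in NT2/D1-A4 cells and 52.8% of those called up in 2102EP-C1 cells. There were 406 genes called down in both, 33.3% and 30.6% of each. Opposite calls were given to 42 genes that rose in NT2/D1-A4 cells (2.11%) and 13 that fell (1.07%). Over all genes tested in 2102EP-C1 cells, 10.5% were called up and 8.82% down.

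Among antioxidant and iron genes, a few members rose. NQO1, a quinone reductase under NRF2, stood at 6.17, 6.19, and 6.29 log2 CPM without GSK-J4 and 7.43, 7.51, and 7.54 with it (2.43-fold, adjusted p = 2e-14). It was 1 of 4 of 17 NRF2 genes called up (23.5%, against 12.8% of all genes tested, median 0.23). HMOX1 and GCLC were not called (log2 fold change 0.13 and -0.19). Of 14 iron genes, 5 were called up (35.7%) and 1 down (7.14%), against 12.8% and 7.84% of all genes tested (median 0.17). The count called down was 0 without Cisplatin replicate 1. SLC40A1, the iron exporter ferroportin, rose 2.45-fold, FTH1 and FTL, the ferritin subunits, rose 1.63-fold and 1.54-fold, and TFRC, the transferrin receptor, rose 1.56-fold. LAMP3, a lysosomal membrane protein, rose 7.71-fold, but only 2 of 32 autophagy and lysosome genes were called up (6.25%, median 0.08).

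Genes of cisplatin handling and repair were also listed. Of 15 genes for cisplatin transport and detoxification, 2 were called up (13.3%, against 12.8% of all genes tested), GSS, glutathione synthetase (1.36-fold), and SLC22A3, an organic cation transporter (1.51-fold). Without Cisplatin replicate 3 or Combination replicate 1, 4 were called up. SLC31A1, the copper transporter that carries cisplatin, was 1.29-fold higher and just under the fold limit, which it passed at plain library sizes (log2 fold change 0.40). Of 33 genes for crosslink and excision repair, 2 were called up (6.06%) and none down. Those 2 were DDB2 (1.68-fold) and POLH (1.49-fold), which are also p53 targets. ERCC1, a crosslink repair nuclease subunit, had a log2 fold change of 0.22 and was not called. Of 8 tested metallothionein and zinc genes, MT1M (1.38-fold) and SLC30A1, a zinc exporter (1.38-fold), were called up.

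Further lists covered immediate early genes and general cell functions, to be read beside 12.8% called up and 7.84% called down over all genes tested. Of 14 AP-1 and immediate early genes, 8 were called up and none down (median 0.40), led by FOSL2 (2.55-fold), and 5 were called up without Combination replicate 1. Of 12 interferon-stimulated genes, 3 were called down (25%), IFIT1, IRF9, and BST2, at 0.675-, 0.681-, and 0.734-fold. Of 81 splicing genes, 7 of them pseudogenes, 8 were called down (9.88%) and 1 up (1.23%, median -0.18), with PRPF3 at 0.677-fold. Of 77 cytosolic ribosomal protein genes, 5 were called up (6.49%, median 0.15). This count was 0 without Cisplatin replicate 1, 1 without Combination replicate 3, and 16 without Combination replicate 1. Of 75 mitochondrial ribosomal protein genes, 1 was called up (1.33%) and 2 down (2.67%). There were 2 up without Combination replicate 1 and 1 down without Cisplatin replicate 2 or Combination replicate 3. Of 79 respiratory chain genes, 2 of them pseudogenes, 2 were called up and 2 down (2.53% each). Those called up were 1, 4, and 5 without Cisplatin replicate 1, 2, or 3, and 6 and 0 without Combination replicate 1 or 3, and 1 gene was called down in most fits that left out a library.

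Among called genes with a mean of at least 0 log2 CPM, 6 of the 10 largest rises lay outside these lists. DDR2, a collagen receptor kinase, rose 15.3-fold, from -0.39, -0.80, and -0.67 log2 CPM to 3.38, 3.25, and 3.31 (17 to 21 reads against 263 to 379). INHBE, a subunit of activin E, rose 13.3-fold, KIF1A, an axonal transport motor, 10-fold, and ULBP1, a ligand of the natural killer cell receptor NKG2D, 9.94-fold. PCK2, the mitochondrial phosphoenolpyruvate carboxykinase, rose 9.75-fold and MKX, a homeobox factor of tendon, 8-fold, and PCK2 lies within the annotated span of NRL. The largest falls by the same rule were smaller. WNT8A, a WNT ligand, fell to 0.330-fold from 1.99, 1.95, and 1.89 log2 CPM to 0.69, 0.61, and -0.27, ATP6V0A4, a proton pump subunit, to 0.351-fold, PPP1R1B, a phosphatase inhibitor, to 0.357-fold, and SEMA6B, a semaphorin, to 0.363-fold. MATK, a kinase that restrains SRC family kinases, fell to 0.380-fold, GAL3ST1, a sulfatide synthesis enzyme, to 0.411-fold, PCSK1, a prohormone convertase, to 0.425-fold, RIPOR3 to 0.424-fold, and LRRC15 to 0.435-fold. PCSK1 lies within the annotated span of CAST. Values on the log2 scale with an added prior count understate changes of such low genes.

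The GSK-J4 effect with cisplatin was then set beside the effect without it. GSK-J4 against VC called 2267 genes up (13.8%) and 1065 down (6.48%), and these 6 libraries are distinct from the 6 above. Genes called up in both comparisons numbered 1612, which was 76.5% of those called up with cisplatin and 71.1% of those called up without it. Genes called down in both numbered 734, or 56.9% and 68.9%. Of the 3396 genes changed with cisplatin, 3337 had the same sign without it. Across all 16431 genes, which are not independent replicates, the log2 fold changes had a Pearson r of 0.86. HLA-DMA, an antigen presentation gene named here because it alone had opposite calls, had a log2 fold change of -0.48 with cisplatin and 0.48 without it, on 29 to 59 reads in the 6 cisplatin-treated libraries.

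**Figure D4:**
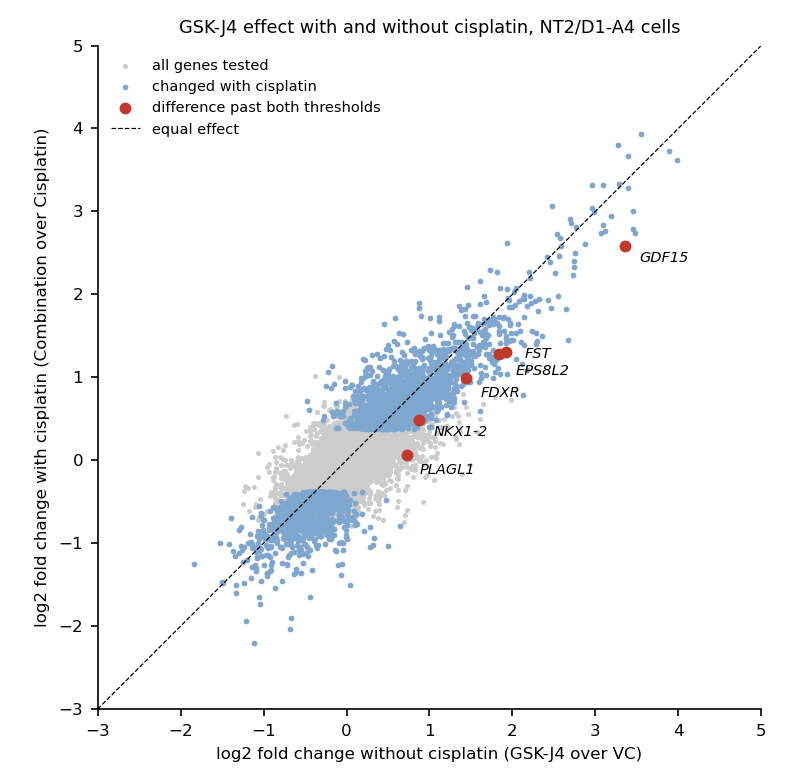
Log2 fold change by GSK-J4 with cisplatin (y axis, Combination over Cisplatin) against that without it (x axis, GSK-J4 over VC) for 16431 genes of NT2/D1-A4 cells. Blue genes were changed with cisplatin, the dashed line marks equal effects, and the 6 red genes, among those whose effects differed past both thresholds, lie below the line.

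The difference between the 2 effects was tested directly as an interaction, and 7 genes passed (0.0426% of those tested), all with a more negative effect when cisplatin was present, and 6 are named here. At an unadjusted p under 0.05 there were 1174 genes, but among 16431 tests many pass that cutoff with no true difference. GDF15 stood at 2.55, 2.88, and 3.03 log2 CPM in VC, 6.08, 6.18, and 6.27 with GSK-J4, 3.72, 3.86, and 3.79 with cisplatin, and 6.41, 6.42, and 6.30 with both. The GSK-J4 effect was thus 3.35 without and 2.58 with cisplatin, a difference of -0.77 (SE 0.12, limma-trend adjusted p = 0.02). FST, which encodes the activin antagonist follistatin, had effects of 1.92 and 1.31 (difference -0.61, adjusted p = 0.00034). EPS8L2, an actin regulator, had effects of 1.84 and 1.28 (difference -0.56, adjusted p = 0.027), and FDXR, a ferredoxin reductase and p53 target, had 1.43 and 0.99 (difference -0.45, adjusted p = 0.045). In each of these 4 genes the 3 Cisplatin libraries were above the 3 VC libraries. Both groups enter the test that picked these genes, and a negative difference favours this order, so that it is not a separate result. PLAGL1, an imprinted zinc finger factor, rose with GSK-J4 without cisplatin (log2 fold change 0.73) and was not called with it (0.06, limma-trend adjusted p = 0.57), a difference of -0.67 (SE 0.11, adjusted p = 0.027), and it stood at 3.27, 3.27, and 3.36 log2 CPM in Cisplatin libraries against 2.31, 2.43, and 2.31 in VC. NKX1-2, a homeobox factor, had effects of 0.88 and 0.49 (difference -0.39, adjusted p = 0.015).

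The number of genes in the interaction depended on single libraries. It was 2, 4, and 4 without VC replicate 1, 2, or 3, 4, 1, and 3 without Cisplatin replicate 1, 2, or 3, 5, 1, and 2 without GSK-J4 replicate 1, 2, or 3, and 11, 1, and 6 without Combination replicate 1, 2, or 3. Of these 12 fits, FST passed in all 12, GDF15 in 7, NKX1-2 in 6, PLAGL1 in 4, EPS8L2 in 3, and FDXR in 1, that without Combination replicate 1. FDXR also did not pass with the replicate block (-0.445), with limma-voom (-0.438), or with the filter on low values.

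**Figure D5:**
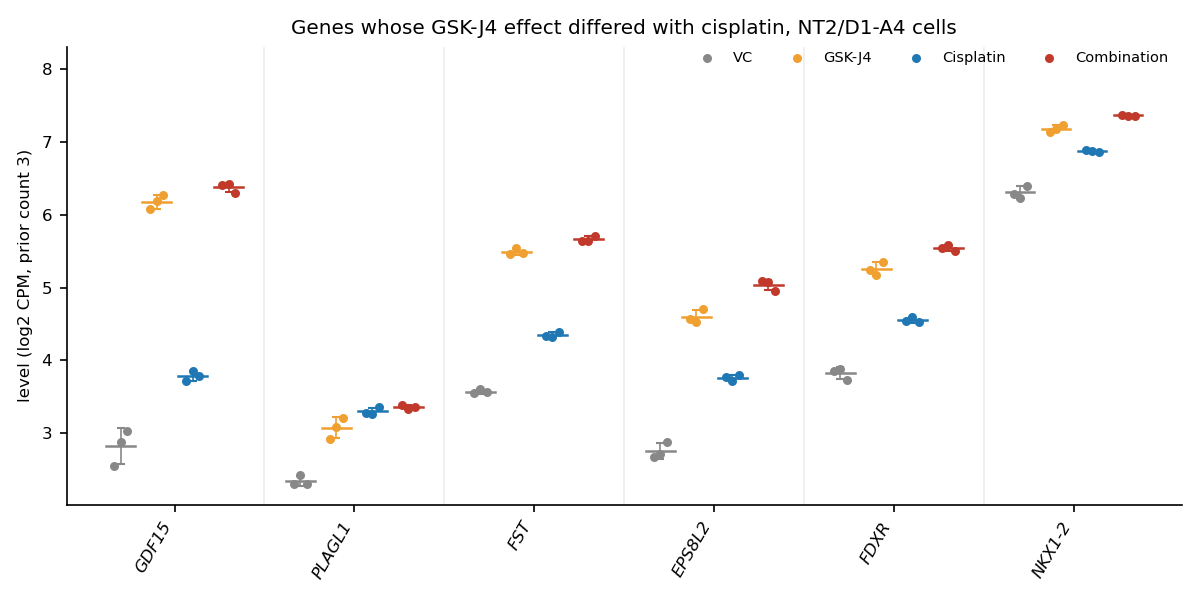
Levels in log2 CPM (y axis) of 6 genes whose GSK-J4 effect differed with and without cisplatin, in NT2/D1-A4 cells labelled VC (gray), GSK-J4 (orange), Cisplatin (blue), and Combination (red). Points are libraries, horizontal lines are means, and error bars are the SD of 3 libraries. The Cisplatin libraries lie above the VC libraries in all 6 genes, an order that the selection of these genes favours.

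Knockdown of the same demethylases in cisplatin-treated 2102EP-C1 cells was set beside these values. There, sh6A+6B with cisplatin against pLKO.1 with cisplatin called 6.4% of 16459 genes up and 8.77% down. KDM6A and KDM6B were themselves called down (log2 fold change -0.96 and -1.24). Of the genes tested in both, 226 were called up by GSK-J4 in NT2/D1-A4 cells and by the knockdown, 11.7% of the first list and 27.4% of the second. Another 157 were called up here and down there, 8.16% of the first list against 8.77% called down over all genes there. Genes called down in both numbered 206, or 17.8% and 16.4%. Called down here and up there were 52, or 4.49% against 6.4% called up over all genes there. In the integrated stress response list the knockdown called 3 of 20 genes up (median 0.06), CHAC1 among them at a log2 fold change of 0.39 against 3.32 with GSK-J4, and in the p53 arrest list it called none of 21 (median 0.07). DNMT3B and MKI67 were called down there too (log2 fold change -0.47 and -0.73), as was UHRF1 (-0.64). Of the 21 mitosis genes, the knockdown called 2 down and 12 had a positive log2 fold change (median 0.05). The knockdown differed from GSK-J4 in cell line and in the table it was normalized with, and the difference was not tested.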

How the data were processed

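RNA-seq was made from 36 libraries, of which the 12 NT2/D1-A4 libraries were analysed here and the others set beside them. By the methods and processing notes, the authors made stranded poly(A) libraries, used Trimmomatic for trimming, STAR for alignment to GRCh38.p14, and featureCounts for counting, removed genes not reaching 0.5 CPM in 2 or more samples, and applied TMM scaling. Versions and the strand setting of the count are not given in the sources used here. Per gene, the authors deposited log2 CPM. These could be rebuilt to within 5.04e-09 from whole reads with a prior count of 3, and all 45185 values under 50 reads lay within 0.05 of a whole read. Depth came from the recovered reads.

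Group means of the 12 libraries were fitted by limma-trend with no block (limma 3.58.1, R 4.3.3), with two-sided tests and Benjamini-Hochberg adjustment over all genes. Calls required more than 1.3-fold and an adjusted p under 0.05. Fold changes are on the log2 scale with the prior count, which understates low genes. The other 2 tables were fitted the same way. Same-numbered Cisplatin and Combination libraries deviated together with r of 0.0116 to 0.0767, so that the numbers were not used as pairs. In counts simulated for the main comparison over 16431 genes, 92.5% of 200 planted changes were recovered (82.1% at a log2 fold change of 0.58, 95.5% at 1, and 100% at 2) with 14 false calls. The planted genes left out low counts, all genes had the same set spread, and fewer genes were altered than the 3396 called. These figures therefore describe the simulated setting and not the performance on these data. Alternatives were a filter on low values, the 6 compared libraries alone, a replicate block, plain library sizes, a prior count of 0.5, limma-voom on recovered reads, and leaving out each library.

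Symbols were matched by GeneID to RefSeq (16414 of 16431). Overlap with another annotated gene was not flagged above for every named gene. IFIT1 lies within the span of LIPA and SOX2 within that of SOX2-OT. Part of the span overlaps another gene for CEBPB (70.5%), BCL2L1 (70.1%), FAS (51.5%), and SLC31A1 (50.8%). The members and gene lists were chosen with earlier results of these data known. The naming rule took members marked in the lists, up to 4 called members per list with the largest change, the 10 largest rises and falls with a mean log2 CPM of at least 0 and no overlap between groups, and the genes of the interaction. Some items are not reported here, among them 1 gene of the interaction. Other members are examples chosen with their values in view. Tables and plots used Python 3.11.15, numpy 2.4.6, pandas 2.3.3, and matplotlib 3.10.9.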

Additional observations from a re-analysis of the deposited data

Results flagged for a closer look

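In 6 named genes, the GSK-J4 effect differed with and without cisplatin in NT2/D1-A4 cells by the limma-trend test of the difference itself, given here as the log2 effect with cisplatin minus that without it. The differences were -0.77 for GDF15, -0.67 for PLAGL1, -0.61 for FST, -0.56 for EPS8L2, -0.45 for FDXR, and -0.39 for NKX1-2. Of 12 fits that each left out 1 library, FST passed in all 12, GDF15 in 7, NKX1-2 in 6, PLAGL1 in 4, EPS8L2 in 3, and FDXR in 1. In all 6 genes the 3 Cisplatin libraries were higher than the 3 VC libraries. These values enter the test that picked the genes, so that this order is not a separate result.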

How the results depend on the processing

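Precision was limited by 3 libraries a group and by low reads in weakly expressed genes. With only genes above a mean of 1 log2 CPM tested, 2185 genes were changed, 1303 of them up. Leaving out each library gave 3097 to 3585 changed genes, 1960 to 2121 of them up and 1137 to 1464 down, and 1 to 11 genes in the interaction. The replicate block gave 2089 up, 1269 down, and 6 in the interaction, with FDXR lost, and the numbers did not pair the libraries. Plain library sizes gave 2330 up and 1083 down (68.3% up against 62.0%, with the median of all genes at 0.03), limma-voom gave 2093 and 1253, the 6 compared libraries alone 2029 and 1224, and a prior count of 0.5 gave 2105 and 1289. Of the 131 called genes named by the rule, which does not cover the list members given as examples, such as LDHA, 114 kept their call in all 18 settings. Signs turned for 4 named genes, none of them called. EZH2 was 0.0243 at plain library sizes and -0.0314 to 0.0279 without each library. Without each library, MAP2 ranged from -0.0005 to 0.2004, PODXL from -0.0371 to 0.0611, and TBXT from -0.391 to 0.0591. The cause was not tested.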
